A study of Homo sapiens with 16 samples.

Results

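The kinesin motor family was described in IMR32 cells, a human neuroblastoma line grown in culture, after knockdown of TPX2. Members were the protein-coding genes whose symbol was KIF followed by a number and an optional letter, or KIFC1, KIFC2 or KIFC3, which gave 41 of the 58787 genes in the count table. By textbook role, 13 were placed among the mitotic kinesins, 16 among the neuronal transport kinesins and 12 among other kinesins. The libraries fell into 4 groups of 4 biological replicates. Cells received si45, si46 or si47, which are 3 different siRNAs against TPX2 (genotype given as knockdown TPX2), or siNTC, the control siRNA (genotype given as control). All groups shared the cell line and the transfection of an siRNA, and the column headers gave 48 hours for every library. The model is thus 1 cell line, so the replicates measured the spread between libraries of that line.

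Kinesins are ATP-driven motors that walk along microtubules or take them apart. In a dividing cell, mitotic kinesins build the spindle, move and align chromosomes and complete cytokinesis, and many of their genes are transcribed mainly in the G2 and M phases. In a neuron, transport kinesins carry vesicles, mitochondria and other cargo along the axon and dendrites. TPX2 is a spindle assembly factor that activates the kinase AURKA and recruits KIF15 to spindle microtubules.

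Promoter sequence is shown first, because it describes how the mitotic and transport members differ in a feature that neither the naming rule nor the RNA levels used. RefSeq promoters (GRCh38.p14, from 250 bases before to 50 bases after the annotated start) were matched for 33 of the 41 kinesins. The motif TTTGAA, the core of the cell cycle genes homology region bound by the DREAM and MuvB complexes, was searched on both strands. It was present in 9 of 13 mitotic promoters, 1 of 12 transport promoters and 0 of 8 other promoters. The share over all 15842 promoters of that length was 12.1%. Its variant TTTAAA was found in 4 of 13, 1 of 12 and 0 of 8, against 9.7% of all promoters. CCAAT, the box bound by NF-Y, was found in 10 of 13, 3 of 12 and 3 of 8, against 36.4%. Either of the first 2 motifs together with CCAAT was present in 9 of 13, 1 of 12 and 0 of 8, against 8.0%. An E2F-type motif (TTTGGCGC or TTTCCCGC) was rarer, in 1 of 13, 0 of 12 and 1 of 8, against 3.1%. KIF4B is an intronless copy of KIF4A with nearly the same letters around TTTGAA. Both are counted among the mitotic matches for TTTGAA, for CCAAT and for the combination, so these matches are not separate observations. The motifs differ in their letters, but sites of different motifs can touch or overlap. A match describes the letters only and does not show that a factor binds.

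The windows below are each drawn around 1 match, in capitals, for the mitotic kinesins whose RNA levels are described next, on the gene's own strand. Further matches inside a window stay in lower case. TTCAAA is TTTGAA read from the other strand, and ATTGG is CCAAT read from the other strand. The first 6 belong to genes that fell after the knockdown, the 5 others to genes that did not pass the test.
KIF15: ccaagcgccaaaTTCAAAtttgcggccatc
KIF14: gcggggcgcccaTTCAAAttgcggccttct
KIF20B: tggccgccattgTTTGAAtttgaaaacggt
KIF23: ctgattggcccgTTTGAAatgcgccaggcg
KIF18A: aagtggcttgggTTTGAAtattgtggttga
KIF22: gcgcgtagtcttgATTGGtggaacctggga
KIF4A: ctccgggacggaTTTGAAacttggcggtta
KIFC1: tggccgttggaaTTCAAAagtggcgggtgt
KIF18B: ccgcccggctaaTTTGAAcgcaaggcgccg
KIF20A: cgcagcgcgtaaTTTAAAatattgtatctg
KIF2C: ttgcgcgcgggaTTTAAActgcggcggttt

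With the annotated start base counted as 0, the match began at -35 in KIF15 (chr3:44761747-44761776, plus strand), at 1 in KIF14 (chr1:200620733-200620762, minus strand) and at 24 in KIF20B (chr10:89701602-89701631, plus strand). It began at -55 in KIF23 (chr15:69414282-69414311, plus strand) and at -10 in KIF18A (chr11:28108149-28108178, minus strand). In KIF15 the reverse complement of TTTGGCGC ended directly before the match. The KIF20B window also holds a second TTTGAA, at 30, and the KIF23 window holds CCAAT on the other strand, at -64. KIF22 held neither TTTGAA nor TTTAAA, and its window shows CCAAT at -66 (chr16:29790672-29790701, plus strand). Among mitotic kinesins that did not pass the test in the mean of the 3 siRNAs, TTTGAA was found in KIF4A, KIFC1 and KIF18B, and TTTAAA in KIF20A and KIF2C.

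RNA was measured by 3′ end sequencing, in which a read marks the end of a transcript, so levels were not divided by gene length. Levels are CPM, the deposited counts relative to the TMM-scaled library total. Library totals ran from 5318159 to 7864343 counts, with a median of 5966581.5. TPX2 itself averaged 327 ± 27.1 CPM (SD, n = 4) with siNTC, and fell to 28.0% of that level with si45, 24.9% with si46 and 21.8% with si47. The si45 replicate 3 library kept the highest TPX2 level of the 12 knockdown libraries, 121 CPM. All 10 adrenergic neuroblastoma markers passed the low-count filter, and their summed level ran from 5657 to 6187 CPM with siNTC and from 5831 to 7429 CPM in the knockdown libraries. Of 14 mesenchymal, Schwann cell and fibroblast markers, 7 passed the filter, their summed level ran from 297 to 349 CPM with siNTC and from 304 to 441 CPM in the knockdown libraries, and SOX10 had 0 counts in every library. Of 10 blood and endothelial markers 0 passed the filter, and their summed level ran from 0.694 to 3.91 CPM with siNTC and from 0.373 to 5.21 CPM in the knockdown libraries.

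IMR32 cells expressed kinesins of every class at baseline. The transport class made up 59.9% of the summed kinesin CPM in the siNTC libraries, the mitotic class 29.2% and the other kinesins 10.9%. KIF21A, a kinesin of the kinesin-4 family that restrains microtubule growth at the cell cortex, gave 22.2% of the whole by itself. The next levels belonged to KIF1A at 390 ± 24 CPM, KIF5B at 326 ± 10.6, KIF20B at 278 ± 12 and KIF5C at 263 ± 20.2 (SD, n = 4). KIF20B and KIF5C lay within their spread of each other, as did KIF26A (191 ± 29.9) and KIF15 (183 ± 10.3). A kinesin of each class thus stood among the 6 most abundant, and 36 of 41 members averaged at least 1 CPM.

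**Figure D1:**
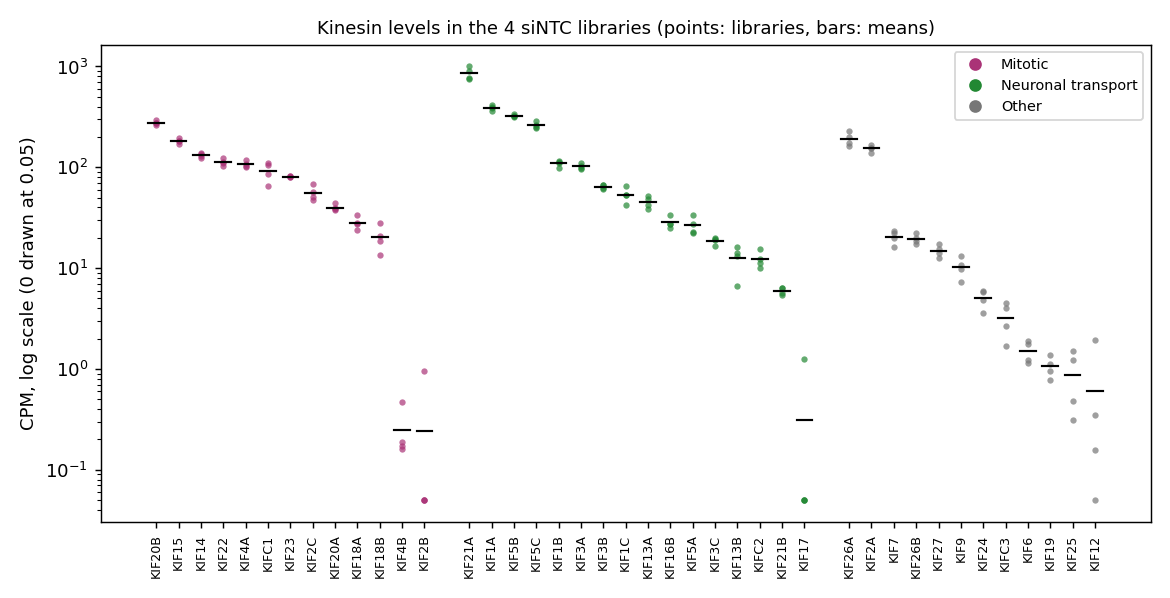
Level of each of the 41 kinesins in the 4 siNTC libraries, in CPM on a log axis, grouped by class and ordered by level within it; points are libraries, short bars are means, and a level of 0 is drawn at 0.05. KIF21A leads at 861 ± 118 CPM, and the mitotic members are headed by KIF20B at 278 ± 12 CPM.

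Of the 41 members, 35 passed the low-count filter and were tested: 11 of 13 mitotic, 15 of 16 transport and 9 of 12 other kinesins. The 6 below it were KIF4B and KIF2B (mitotic), KIF17 (transport), and KIF19, KIF25 and KIF12 (other), with at most 12 counts in any library. KIF4B is an intronless copy of KIF4A, so its few reads may belong to KIF4A. In the mean of the 3 siRNAs against siNTC, 8 kinesins fell and 0 rose, which is 22.9% of those tested. Over all 14193 genes tested, 7.14% were called, 3.53% lower and 3.61% higher (edgeR quasi-likelihood test, Benjamini-Hochberg adjusted p under 0.05). The mitotic class held 6 of the 8, with 6 of its 11 tested members lower (54.5%), against 2 of 15 transport members (13.3%) and 0 of 9 other kinesins. At an unadjusted p under 0.05, 7 mitotic, 7 transport and 2 other kinesins passed, against 20.4% of all genes. DESeq2 called 6, 3 and 1 in these classes, and limma-voom called 6, 1 and 0. The share of all genes called by these tools was not computed. The median log2 fold change was -0.27 for the mitotic class, -0.10 for the transport class and 0.02 for the others, against -0.00113 for all genes. The value was negative for 10 of 11 mitotic, 11 of 15 transport and 4 of 9 other kinesins, against 50.2% of all genes. In these bulk libraries, fewer cells in mitosis and less kinesin RNA per mitotic cell cannot be told apart.

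Summed over the class, mitotic kinesin RNA was 1101, 1162, 1114 and 1148 CPM in the siNTC libraries. It was 966, 961, 989 and 1009 CPM with si45, 1000, 875, 918 and 941 with si46, and 891, 788, 903 and 900 with si47. All 12 knockdown libraries lay below all 4 controls. The means were 86.7%, 82.5% and 77.0% of the control mean. Summed transport kinesin RNA averaged 2319 ± 160 CPM with siNTC, and 2146 ± 120, 2127 ± 158 and 2029 ± 66.8 CPM with si45, si46 and si47 (SD, n = 4). Its groups overlapped under si45 and si46, where 2 and 3 of 4 libraries lay below the controls, and not under si47, where 4 of 4 did. The other kinesins averaged 422, 423, 429 and 399 CPM in the same order. No test was applied to these sums, because the classes were assigned with earlier results known.

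**Figure D2:**
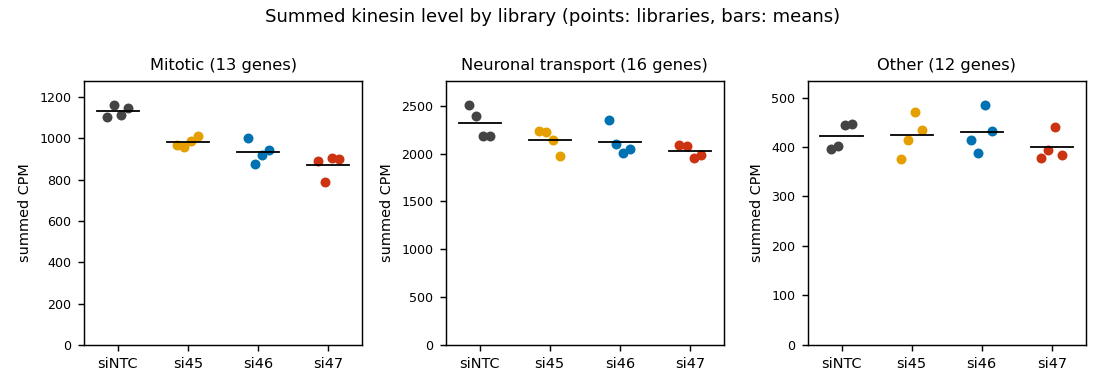
Summed CPM of the 13 mitotic, 16 transport and 12 other kinesins in each library, by group; points are libraries and bars are means, with axes from 0. The mitotic sums of all 12 knockdown libraries lie below the mitotic siNTC range of 1101 to 1162 CPM. The transport and other sums overlap the siNTC range of their own class, except for transport under si47.

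KIF15, which crosslinks and slides spindle microtubules and is recruited by TPX2, fell with the lowest adjusted p of the family in the mean of the 3 siRNAs. Its gene (ENSG00000163808, chr3:44761717-44873376, plus strand, GRCh38) read 195, 183, 169 and 183 CPM with siNTC. The levels were 131, 159, 172 and 128 CPM with si45, 147, 140, 123 and 121 with si46, and 121, 130, 126 and 128 with si47. Only 1 of the 12 knockdown libraries, si45 replicate 3, reached the control range, and it was also the library with the highest remaining TPX2. Whether the TPX2 level has a part in that value was not tested. Averaged over the 3 siRNAs the log2 fold change came to -0.43 (SE 0.0754, edgeR adjusted p = 0.000221). With si45 alone it was -0.31 (edgeR adjusted p = 0.112), and without si45 replicate 3 that comparison passed (edgeR adjusted p = 0.018).

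KIF14, a cytokinesis motor that binds PRC1 and citron kinase, showed the same order of siRNAs in its means. Its gene (ENSG00000118193, chr1:200551497-200620734, minus strand) read 123, 136, 140 and 130 CPM with siNTC. It read 104, 107, 112 and 111 with si45, 107, 89.7, 104 and 102 with si46, and 82.4, 74.9, 109 and 79.9 with si47. All 12 knockdown libraries lay below all controls, and si47 replicate 3 lay apart from the other si47 libraries and among those of si45. On the log2 scale KIF14 changed by -0.43 (SE 0.0799, edgeR adjusted p = 0.000504) in the mean, -0.28 with si45, -0.39 with si46 and -0.61 with si47. The si46 call was lost without siNTC replicate 2, siNTC replicate 3, si46 replicate 2 or si46 replicate 4 (edgeR adjusted p = 0.0558 to 0.103).

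KIF20B and KIF23, which act in cytokinesis as KIF14 does, fell too, and both were below all controls in 12 of 12 libraries. KIF20B, a motor of late cytokinesis (ENSG00000138182, chr10:89701610-89774939, plus strand), read 294, 278, 275 and 265 CPM with siNTC. It read 220, 241, 250 and 241 with si45, 261, 222, 230 and 228 with si46, and 227, 204, 208 and 229 with si47. No knockdown library reached the lowest control, although si46 replicate 1 came near it. KIF20B thereby changed by -0.27 on the log2 scale (SE 0.0650, edgeR adjusted p = 0.00644). KIF23, the motor subunit of the centralspindlin complex (ENSG00000137807, chr15:69414246-69448427, plus strand), varied little in the controls, at 80.5, 79.8, 82.3 and 81.2 CPM. It read 75.8, 63.6, 65.4 and 74.9 with si45, 57.0, 63.1, 65.1 and 58.5 with si46, and 58.8, 57.0, 66.5 and 62.6 with si47. The groups did not overlap, and the si45 libraries came nearest to the controls. For KIF23 the fold change was -0.34 (log2, SE 0.0793, edgeR adjusted p = 0.00526). Its si46 call was lost without si46 replicate 1 or replicate 4 (edgeR adjusted p = 0.055 and 0.0523).

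Of the motors that act on chromosome arms and alignment, KIF22 and KIF18A fell. KIF22, a chromokinesin that pushes chromosome arms from the poles (ENSG00000079616, chr16:29790719-29805385, plus strand), read 104, 110, 114 and 124 CPM with siNTC. It read 96.6, 88.7, 87.4 and 102 with si45, 99.5, 76.4, 97.3 and 86.6 with si46, and 75.6, 80.9, 96.6 and 82.1 with si47. All 12 lay below the controls, with si45 replicate 4 at the edge. KIF22 changed by -0.34 on the log2 scale (SE 0.0811, edgeR adjusted p = 0.00615), and the call was lost without siNTC replicate 4 (edgeR adjusted p = 0.0567). An antisense transcript overlaps the last 1000 bases of KIF22, and with strand use not stated its reads cannot be told apart. KIF18A, a kinesin-8 that damps chromosome movement at the metaphase plate (ENSG00000121621, chr11:28020620-28108308, minus strand), was less abundant, at 24, 33.8, 27.4 and 28.1 CPM with siNTC. It read 21.1, 18.5, 23.6 and 21.6 with si45, 21.3, 16.2, 21.2 and 19.0 with si46, and 20.3, 16, 23.5 and 16.6 with si47. Again no knockdown library reached the controls, though the gap to siNTC replicate 1 was small. Its log2 fold change, -0.51 (SE 0.127, edgeR adjusted p = 0.00978), was the lowest of the mitotic class, and the call was lost without siNTC replicate 2 (edgeR adjusted p = 0.0929).

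**Figure D3:**
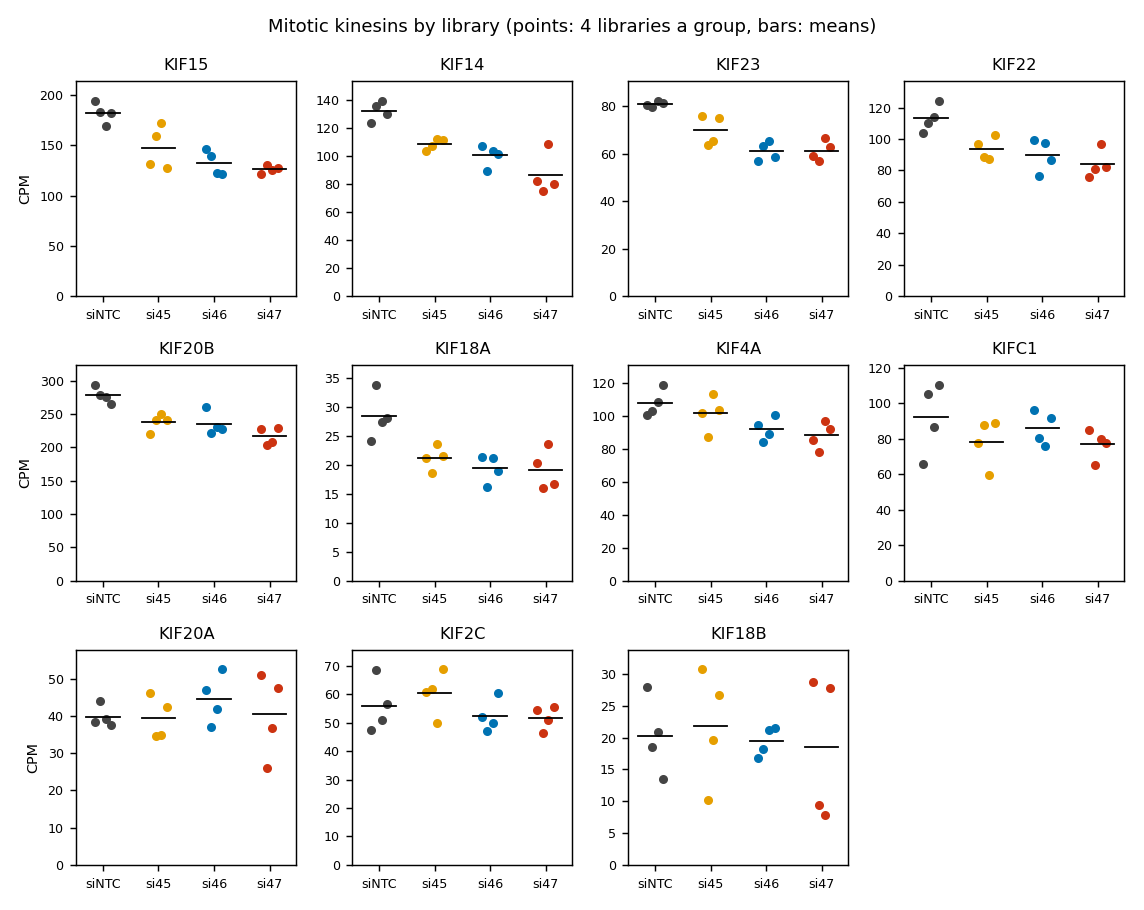
CPM of the mitotic kinesins in each library by group, with axes from 0; points are the 4 libraries of a group and bars are means. KIF14, KIF18A, KIF20B, KIF22 and KIF23 have all 12 knockdown libraries below the controls, while those of KIF2C, KIF20A and KIF18B overlap them. The share of all genes with all 12 below was not computed.

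The other 5 tested mitotic kinesins did not pass the test in the mean of the 3 siRNAs. KIF4A, a chromokinesin that sets the length of the central spindle, read 101, 103, 109 and 119 CPM with siNTC. It read 102, 87.5, 114 and 104 with si45, 94.7, 84.6, 89.0 and 101 with si46, and 85.3, 78.2, 97.3 and 92.1 with si47. The si45 libraries overlapped the controls, and the si47 libraries did not. The log2 fold change was -0.20 (95% interval -0.36 to -0.04, edgeR adjusted p = 0.128), and with si47 it was -0.29 (edgeR adjusted p = 0.057). With si47, KIF4A passed under DESeq2 (adjusted p = 0.0434) and without si45 replicate 3 or si47 replicate 3 (edgeR adjusted p = 0.0456 and 0.031). With the replicate number as a block it passed with si47 (edgeR adjusted p = 0.0124) and in the mean (0.0412). KIFC1, a minus-end motor that clusters spindle poles, was spread widely in the controls, from 65.9 to 110 CPM, and its 12 knockdown libraries ran from 59.3 to 96.1 CPM (log2 fold change -0.20, 95% interval -0.42 to 0.02). KIF2C, the centromeric microtubule depolymerase, ran from 47.6 to 68.7 CPM in controls and from 46.3 to 68.9 CPM after knockdown (log2 fold change -0.04, 95% interval -0.23 to 0.16). For KIFC1 and KIF2C the groups overlapped.

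KIF20A, which delivers the chromosomal passenger complex to the central spindle, lay on both sides of its controls. Its siNTC libraries read 38.3, 44.1, 39.1 and 37.6 CPM, and the knockdown libraries spread from 26.1 to 52.5 CPM, 5 above all controls and 5 below. The log2 fold change was 0.06 (95% interval -0.19 to 0.31). Its last 1000 bases overlap CDC23 on the opposite strand, so that reads of CDC23 may be included. KIF18B, which shortens astral microtubules, varied widely within groups. It read 27.9, 18.5, 20.8 and 13.5 CPM with siNTC, 30.7, 10.2, 19.6 and 26.7 with si45, 16.8, 18.2, 21.2 and 21.4 with si46, and 28.8, 9.43, 7.9 and 27.8 with si47. Libraries of the same group differed more than the group means did, and the interval of its log2 fold change ran from -0.70 to 0.65.

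Among the transport kinesins, the most abundant member fell. KIF21A (ENSG00000139116, chr12:39293228-39443390, minus strand) read 1004, 910, 772 and 757 CPM with siNTC. It read 762, 813, 678 and 639 with si45, 871, 763, 635 and 668 with si46, and 729, 735, 659 and 668 with si47. Of the 12 knockdown libraries, 8 lay below all controls, including all 4 of si47, and replicates 1 and 2 of si45 and si46 lay inside the control range. In the mean of the 3 siRNAs KIF21A changed by -0.26 on the log2 scale (SE 0.0799, edgeR adjusted p = 0.0403). That call was lost in 7 of 16 fits that left out 1 library: siNTC replicate 1 (edgeR adjusted p = 0.267), siNTC replicate 2 (0.145), si45 replicates 1 and 4, si46 replicates 3 and 4, and si47 replicate 4 (0.05 to 0.061). It was also lost when at least 10 counts were required in every library (edgeR adjusted p = 0.0528). With the replicate number as a block the call held, and KIF21A passed with si45 and si46 too (edgeR adjusted p = 0.0174 and 0.0195).

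KIF13B, a motor for phosphoinositide-bearing vesicles, had the lowest log2 fold change of the family at a low level. It read 13.3, 16.3, 6.62 and 14.1 CPM with siNTC. It read 5.43, 10.1, 5.89 and 5.67 with si45, 9.87, 8.91, 9.09 and 6.89 with si46, and 6.60, 10.5, 4.70 and 9.65 with si47. A low control, siNTC replicate 3, made the groups overlap, and 5 of 12 knockdown libraries lay below it. Its fold change in the mean was -0.70 (log2, SE 0.214, edgeR adjusted p = 0.039). The call was lost in 7 of 16 fits without 1 library (siNTC replicates 1, 2 and 4, si45 replicates 1 and 4, si46 replicate 4, si47 replicate 1, edgeR adjusted p = 0.0579 to 0.211) and under limma-voom (adjusted p = 0.0535). An antisense transcript overlaps its last 1000 bases. With the replicate number as a block the call in the mean held, and KIF13B passed with si45 and si47 (edgeR adjusted p = 0.0234 and 0.0439).

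The KIF1 motors, which carry synaptic vesicle precursors, dense-core vesicles and mitochondria, stood lowest with si47. KIF1A read 418, 385, 360 and 395 CPM with siNTC, 381, 379, 399 and 366 with si45, 407, 318, 380 and 345 with si46, and 341, 318, 323 and 290 with si47. Only the si47 libraries lay wholly below the controls. KIF1B read 97.6, 111, 113 and 116 with siNTC, 85.4, 112, 101 and 88.5 with si45, 81.1, 92.9, 97.8 and 102 with si46, and 88.2, 88.4, 86.5 and 82.0 with si47. KIF1C read 53.1, 42.4, 64.7 and 53.4 with siNTC, 48.1, 36.8, 61.6 and 51.8 with si45, 47.9, 32.0, 50.5 and 41.4 with si46, and 30.6, 36.8, 37.1 and 39.8 with si47. For each of the 3 genes, si45 and si46 libraries overlapped the controls. In the mean of the 3 siRNAs none passed in the main fit: the log2 fold changes were -0.14 for KIF1A, -0.25 for KIF1B and -0.33 for KIF1C (edgeR adjusted p = 0.224, 0.0512 and 0.0998). KIF1B passed under DESeq2 (adjusted p = 0.0435), with the replicate number as a block (edgeR adjusted p = 0.0121) and in 5 of 16 fits without 1 library. KIF1C passed with that block (edgeR adjusted p = 0.0129), without the low-count filter (0.0461) and without si45 replicate 3 (0.0374).

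The conventional kinesin heavy chains did not pass under any siRNA in the main fit. KIF5B, the ubiquitous one, read 342, 325, 318 and 321 CPM with siNTC, 361, 310, 341 and 323 with si45, 325, 300, 275 and 288 with si46, and 379, 342, 338 and 373 with si47. Of the si46 libraries 3 lay below all controls, and of the si47 libraries 3 lay above them. The log2 fold change in the mean was 0.01 (95% interval -0.12 to 0.14), with -0.13 under si46 and 0.13 under si47. KIF5C, a neuronal one, read 264, 291, 250 and 247 with siNTC, 260, 262, 235 and 226 with si45, 299, 274, 260 and 277 with si46, and 237, 240, 207 and 231 with si47. Its mean log2 fold change was -0.07 (95% interval -0.21 to 0.06). With si47 it was -0.20 (edgeR adjusted p = 0.129), and with the replicate number as a block KIF5C passed there (edgeR adjusted p = 0.0424). KIF5A, the other neuronal chain, averaged 26.6 ± 5.26 CPM with siNTC and had a log2 fold change of 0.11 (95% interval -0.13 to 0.35).

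In the main edgeR fit, the remaining transport kinesins did not pass in any comparison with siNTC. KIF3A, KIF3B and KIF3C, the motor subunits of kinesin-2, had log2 fold changes of -0.03, 0.21 and 0.05. KIF3B was above all controls in 3 of 4 si45 and 4 of 4 si46 libraries but 1 of 4 si47 libraries (log2 fold changes 0.29, 0.34 and -0.00368, edgeR adjusted p = 0.296, 0.113 and 0.991). With the replicate number as a block KIF3B passed with si46 (edgeR adjusted p = 0.0429). KIF16B, an early endosome motor, and KIF21B were each below all controls in 9 of 12 libraries, with log2 fold changes of -0.28 and -0.48 (edgeR adjusted p = 0.149 and 0.382). With si47, KIF16B had an edgeR adjusted p of 0.0674, but DESeq2 called it (adjusted p = 0.0422), and it passed by edgeR without si47 replicate 3 (adjusted p = 0.0402). Under si47 KIF16B also passed with that block (edgeR adjusted p = 0.0442). The other 3 knockdown libraries of KIF21B lay above all its controls, at 7.92, 6.84 and 6.55 CPM against a control maximum of 6.42 CPM. KIF13A and KIFC2 had log2 fold changes of -0.10 each.

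**Figure D4:**
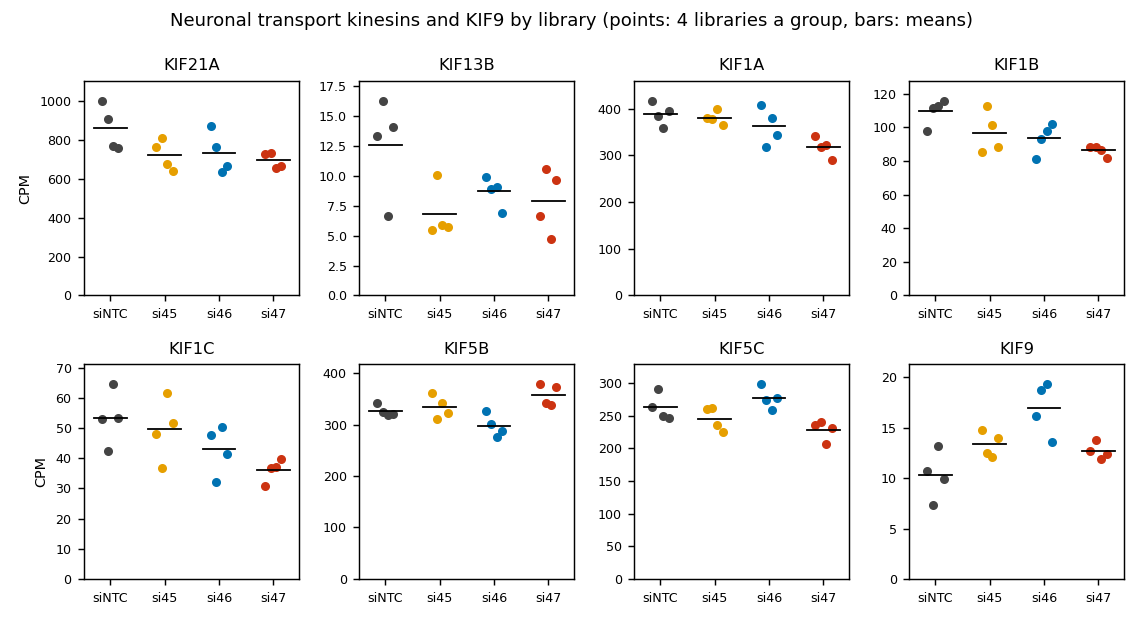
CPM of transport kinesins and of KIF9 in each library by group, with axes from 0; points are the 4 libraries of a group and bars are means. KIF1A, KIF1B, KIF1C and KIF21A lie below all controls in the 4 si47 libraries, KIF5B lies on both sides, and KIF9 lies above all controls in the 4 si46 libraries.

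Among the other kinesins, the only call of the main edgeR fit was higher, and under 1 siRNA. KIF9, a motor of motile cilia and flagella, read 10.7, 7.35, 13.2 and 9.89 CPM with siNTC. It read 14.7, 12.5, 12.1 and 14 with si45, 16.2, 18.7, 19.4 and 13.6 with si46, and 12.7, 13.8, 11.9 and 12.4 with si47. All 4 si46 libraries exceeded the controls, and those of si45 and si47 overlapped siNTC replicate 3. The log2 fold change was 0.72 with si46 (SE 0.194, edgeR adjusted p = 0.0284) and 0.47 in the mean (edgeR adjusted p = 0.0763), where DESeq2 called KIF9 (adjusted p = 0.0482). In the mean KIF9 also passed with the replicate number as a block (edgeR adjusted p = 0.0449) and without siNTC replicate 3 (0.046). The si46 call was lost without siNTC replicate 1, 2 or 4 or si46 replicate 1, 2 or 3 (edgeR adjusted p = 0.0516 to 0.126). KIF9 shares its end with an antisense gene, KIF9-AS1.

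KIF26A, an atypical kinesin of neuronal development, read 163, 173, 230 and 198 CPM with siNTC, 172, 162, 233 and 215 with si45, 182, 145, 250 and 198 with si46, and 138, 152, 200 and 151 with si47. Replicate 3 was the highest library in all 4 groups, and the groups overlapped (log2 fold change -0.06, 95% interval -0.33 to 0.21). With si47 the log2 fold change was -0.25 (edgeR adjusted p = 0.415), and with the replicate number as a block KIF26A passed there (edgeR adjusted p = 0.0217). KIF2A, a microtubule depolymerase used both at spindle poles and in neurites, read 154, 155, 139 and 168 CPM with siNTC and from 120 to 165 CPM after knockdown (log2 fold change -0.06, 95% interval -0.21 to 0.08). The last 1000 bases of KIF2A overlap IPO11 on the same strand, so reads of IPO11 may be included. KIF7, a regulator of Hedgehog signalling at the cilium tip, ran from 16 to 23.5 CPM with siNTC and from 17.8 to 31.7 CPM after knockdown (log2 fold change 0.23, edgeR adjusted p = 0.355). KIF26B read 24.8, 24.3, 24.5 and 24.7 CPM with si47, above the control range of 17.2 to 22.2 CPM (log2 fold change 0.34, edgeR adjusted p = 0.151), and it overlapped the controls with the other siRNAs. KIF27, KIF24, KIF6 and KIFC3 had log2 fold changes of 0.02, -0.28, -0.58 and 0.67 in the mean, with edgeR adjusted p from 0.168 to 0.951. KIFC3 was above all controls in 8 of 12 libraries at levels under 8 CPM.

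The siRNAs were then taken 1 at a time. They share the same 4 siNTC libraries, so their values are set side by side and are not independent. With si45, edgeR called 0 of 35 kinesins, against 1.34% of all genes. At an unadjusted p under 0.05, 10 passed (6 of them mitotic), against 11.4% of all genes. DESeq2 and limma-voom called 0. With si46, 4 were called (11.4%, against 3.40% of all genes). KIF14, KIF15 and KIF23 fell (1.25% of all genes were called lower) and KIF9 rose (2.14% higher). For si46, DESeq2 called 7 kinesins, adding KIF18A, KIF20B and KIF22 (adjusted p = 0.0267, 0.0421 and 0.0454), and limma-voom called 4. With si47, 10 were called (28.6%, against 9.74%), and all 10 fell (4.83% of all genes were called lower): the 6 mitotic members named above, KIF21A, and the KIF1 genes. For si47, DESeq2 called 7 mitotic and 5 transport kinesins, and limma-voom 6 and 3. In si47 the log2 fold changes were -0.29 for KIF1A, -0.34 for KIF1B and -0.56 for KIF1C (edgeR adjusted p = 0.0202, 0.0227 and 0.014). Each of these 3 calls was lost without 1 of a few libraries: siNTC replicate 1 or 4 or si47 replicate 4 for KIF1A (edgeR adjusted p = 0.0521 to 0.0804), siNTC replicate 2, 3 or 4 or si47 replicate 4 for KIF1B (0.0572 to 0.0776), and siNTC replicate 3 or si47 replicate 1 for KIF1C (0.0712 and 0.0726). The KIF21A call under si47 (log2 fold change -0.30, edgeR adjusted p = 0.0478) was lost in 8 of 16 such fits, and the KIF18A call under si47 in 3 of 16. The KIF21A call was also lost with upper-quartile factors (adjusted p = 0.055), under limma-voom (0.0543) and with at least 10 counts in every library (0.0572).

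**Figure D5:**
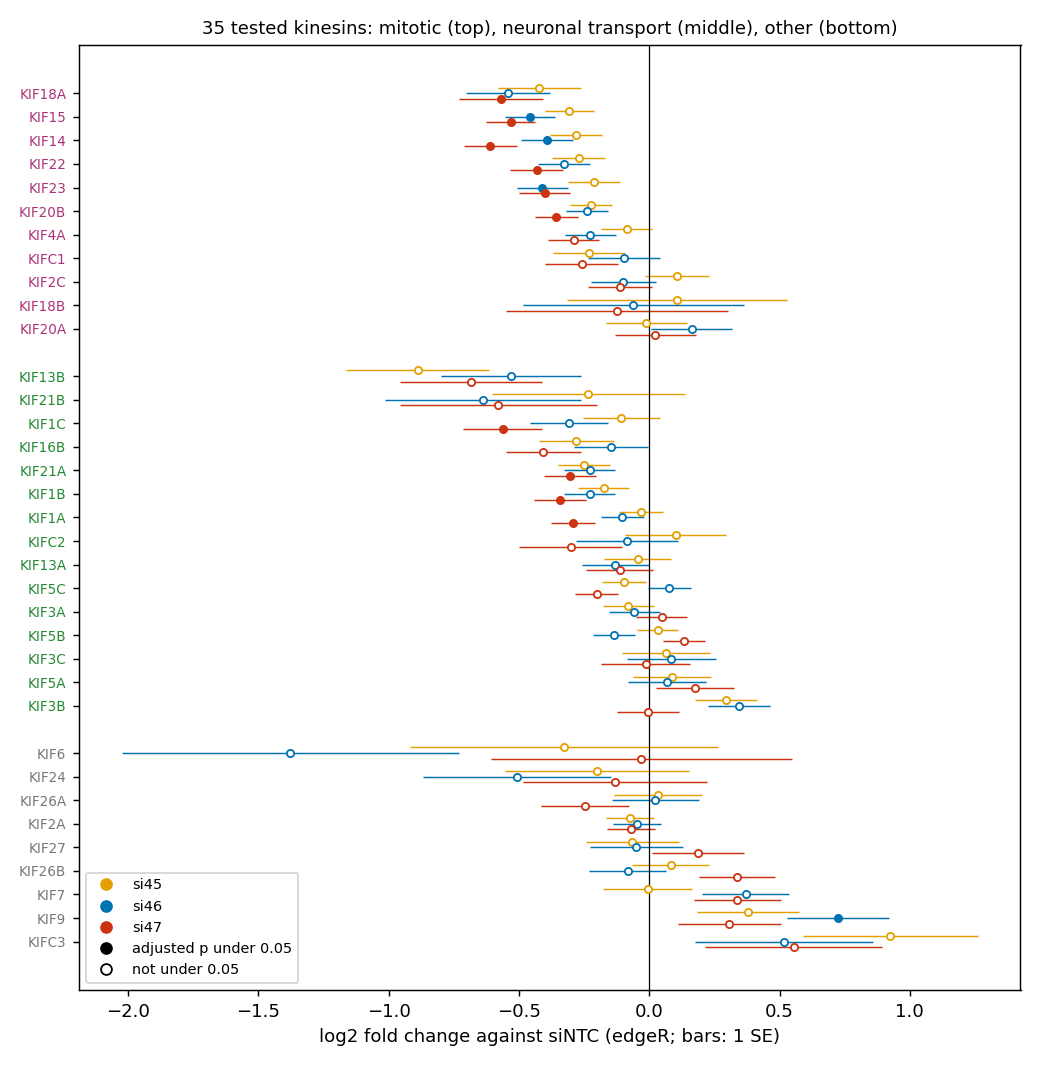
Log2 fold change of the 35 tested kinesins against siNTC under each siRNA (x axis), with bars of 1 SE; genes are ordered within class by their mean over the 3 siRNAs, and filled points passed an adjusted p under 0.05. Under si47 the 6 filled mitotic points lie between -0.61 and -0.36, 4 transport points are filled, and KIF9 under si46 is the 1 filled point above 0.

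Counts of calls depended on single libraries as well: without siNTC replicate 2 the mean of the 3 siRNAs gave 5 calls, and without si47 replicate 4 that siRNA gave 6. For si46 the count was 2 without siNTC replicate 2 or si46 replicate 1, 2 or 4. The mitotic medians were -0.22, -0.24 and -0.36 with si45, si46 and si47, and the transport medians -0.08, -0.13 and -0.29. The medians over all genes were within 0.01 of 0 for each siRNA.

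A difference between siRNAs was tested directly. Between siRNAs edgeR called 0 of 35 kinesins in each of 3 pairs, against 0.0282% of all genes for si46 and si45, 0.169% for si47 and si45, and 0.0493% for si47 and si46. Unadjusted p-values under 0.05 numbered 3, 8 and 8, against 4.10%, 10.4% and 7.29% of all genes. DESeq2 and limma-voom called 0, with no adjusted p from DESeq2 for 1, 6 and 4 kinesins. KIF14 had the lowest adjusted p, with a log2 difference of si47 from si45 of -0.33 (SE 0.101, 95% interval -0.53 to -0.13, edgeR adjusted p = 0.165). It passed when si47 replicate 3 was left out (edgeR adjusted p = 0.0112). With the replicate number as a block, 4 kinesins passed for si47 and si45: KIF14, KIF1A, KIF1C and KIF26A were lower with si47 (edgeR adjusted p = 0.0225, 0.0246, 0.0273 and 0.0353). How many of all genes passed with that block was not computed. The numbers of these 2 groups met the criterion for pairing.

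Genes that work with the mitotic kinesins moved in the same direction in part. Of 23 such genes, all tested, 7 fell and 0 rose in the mean of the 3 siRNAs (30.4% called, against 7.14% of all genes and 3.53% lower), and their median was -0.18 on the log2 scale. AURKB, the kinase of the chromosomal passenger complex that regulates KIF23 and KIF2C, averaged 374 ± 36.1 CPM with siNTC. It averaged 282 ± 29.5, 277 ± 23.7 and 233 ± 48.5 CPM with si45, si46 and si47, and all 12 knockdown libraries lay below the controls (log2 change of -0.51 with SE 0.0863, edgeR adjusted p = 0.000247). CIT, the citron kinase bound by KIF14, and CKAP5, a microtubule polymerase, had log2 fold changes of -0.39 and -0.30 (edgeR adjusted p = 0.0033 and 0.0036). CENPE, a kinesin-7 of the kinetochore that the naming pattern does not cover, averaged 331 ± 31.2 CPM with siNTC and 262 ± 26.6, 272 ± 21.9 and 258 ± 31.4 CPM with the siRNAs. Of the 12 knockdown libraries, 10 lay below its controls (log2 fold change -0.33, SE 0.0753, edgeR adjusted p = 0.00493). INCENP, CDCA8 and ANLN were the other members that fell.

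Of 25 adaptors and light chains of the transport kinesins, all tested, 1 fell and 0 rose in the mean of the 3 siRNAs (4.0% called, against 7.14% of all genes and 3.53% lower), and the list's median was 0.01 on the log2 scale. The 1 that fell was MAPK8IP2, a scaffold that links kinesin-1 to cargo (log2 fold change -0.31, SE 0.0954, edgeR adjusted p = 0.0437, below all controls in 9 of 12 libraries). With si47 alone 3 were called by edgeR (12%, against 9.74% of all genes): MAPK8IP2 and LIN7A fell and KIFAP3, the kinesin-2 accessory subunit, rose. Of 24 genes of cytoplasmic dynein and dynactin, the motor complex that walks toward the minus end, 22 were tested, 1 fell and 1 rose (9.09% called, against 7.14% of all genes), with a median of 0.01. NDE1, a dynein regulator, fell by 0.58 on the log2 scale (SE 0.162, edgeR adjusted p = 0.0261). DYNLL1, a dynein light chain, rose by 0.32 (SE 0.0930, edgeR adjusted p = 0.0336) and was above all controls in 10 of 12 libraries.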

How the data were processed

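The authors deposited raw counts per Ensembl gene, whole numbers that were not normalized, for 16 libraries (total RNA, Lexogen 3′ QuantSeq, 15 PCR cycles, single-end, per the labels). FastQC 0.11.7, STAR 2.7.2b, edgeR 3.36.0, limma 3.50.3 and the GRCh38 build are named per the submitters' processing notes. The counter, the annotation, strand use and duplicate handling are not given in the sources used here, so reads of overlapping genes and near-identical copies are uncertain. The last 1000 bases of KIF2C, KIF3A, KIFC2, KIF7, KIF24 and KIF27 also overlap a gene on the opposite strand. All 16 columns were used, and mitochondrial genes were not analysed here. Symbols matched for 58434 of 58787 identifiers, and positions came from GENCODE 29. 1 pattern match was not protein-coding, and 1 further item is not reported here.

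Genes were kept by filterByExpr (minimum count 10, minimum total 15), scaled by TMM and fitted in edgeR 4.0.16 (R 4.3.3) with a robust quasi-likelihood model of 4 group means over all libraries. p-values were adjusted by Benjamini-Hochberg over 14193 genes in every contrast, and genes under 0.05 were called. Standard errors were obtained by dividing the log2 fold change by the root of F. Alternatives were other scalings, filters and thresholds, DESeq2 1.42.0, limma-voom (limma 3.58.1), a replicate block and leaving out each library. Calls under them were kept for kinesins only, so the calls of partner and marker genes were not checked in this way. For the same reason, counts of kinesins called under the alternatives stand without the share of all genes beside them. Scripts were tested on simulated data. Values were given in every library for each kinesin past the threshold under any siRNA or in the mean, and for up to 5 of the most abundant per class, with ranges or fold changes for the rest, and partner lists were named by lowest p (up to 4, CENPE always). The members and lists were chosen with earlier results of these data known. How many of all genes lie wholly below or above the controls was not computed, so such counts of libraries only describe each gene. Replicates of a group differed by 4.36 to 9.8 in chi-square per degree of freedom, so none was the same library sequenced again. The check cannot exclude separate libraries made from the same RNA or culture, because their preparation also adds spread. Same-numbered libraries were checked for shared deviations: all 4 correlations exceeded 0.1 for si45 and si47 (0.12 to 0.242), and not for any other pair of groups. Every correlation was positive, from 0.0188 (siNTC and si47, replicate 4) to 0.247 (si45 and si46, replicate 3). The cut of 0.1 was not set against libraries of different number, so weaker sharing by number in the other pairs was not excluded.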

Additional observations from a re-analysis of the deposited data

Results flagged for a closer look

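Of 100 groups of 4 libraries examined, 4 held a library that stood apart from the other 3 by Dixon's criterion, where chance gives about 5. KIF13B read 10.1 CPM in si45 replicate 2 and 5.43 to 5.89 CPM in the other si45 libraries. KIF7 read 23.9 CPM in the same library and 18.5 to 19.4 CPM in the others. TPX2 read 121 CPM in si45 replicate 3 and 79.4 to 85.1 CPM in the others. The summed mitotic kinesin level was 788 CPM in si47 replicate 2 and 891 to 903 CPM in the other si47 libraries.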

How the results depend on the processing

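In the mean of the 3 siRNAs, the count of mitotic kinesins called lower stayed at 5 to 7 under every alternative run, and the class median ran from -0.33 to -0.25. The calls of KIF15, KIF14, KIF20B and KIF23 held in all 16 fits without 1 library. Leaving out each library gave 5 to 10 kinesins called in the mean, 0 to 1 with si45, 2 to 6 with si46, 6 to 11 with si47, 0 to 1 between si47 and si45, and 0 to 4 transport kinesins, with a transport median from -0.165 to -0.0568. Transport calls numbered 1 under limma-voom, 1 with at least 10 counts in every library, 0 at an adjusted p under 0.01 and 4 under 0.1. At 0.01, 1 kinesin was called with si46 and 5 with si47. With si45, 1 was called without the low-count filter, and with si46, 7 were called by DESeq2. With the replicate block, calls numbered 12 in the mean (4 transport), 4 with si45, 9 with si46, 15 with si47, 4 between si47 and si45 and 2 between si47 and si46. The share of all genes called with the block was not computed, so these counts cannot be set against it. KIF21A was below its same-numbered control in 12 of 12 libraries, and numbers pair siNTC with no siRNA by the criterion used. The same-numbered correlations with siNTC were still all positive (0.0188 to 0.184). Without 1 library, 8 tested kinesins changed sign in the mean, none of them called: KIF2C (-0.107 to 0.0830), KIF18B (-0.175 to 0.174), KIF5B (-0.00618 to 0.0321), KIF3A (-0.0589 to 0.00496), KIF3C (-0.00361 to 0.0777), KIFC2 (-0.182 to 0.0468), KIF26A (-0.133 to 0.0370) and KIF27 (-0.0495 to 0.105). The cause was not tested. At under 10 CPM, the intervals of KIF21B, KIF24 and KIF6 in the mean of the 3 siRNAs include changes of either sign. Intervals cover the spread between libraries, and counts without molecular identifiers may include PCR copies.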

Other observations

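KIF25, below the low-count filter, had 2 to 8 counts in the siNTC libraries and 0 counts in all 4 si47 libraries, where a count of 0 allows up to 3 counts. KIF12 had 0 to 12 counts with siNTC and 0 counts in all 4 si47 libraries. Both were chosen after their values were seen.

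Of the 10 adrenergic neuroblastoma markers, edgeR called 3 in the mean of the 3 siRNAs, against 7.14% of all genes. Of these 3, 1 was lower and 2 were higher. The log2 fold change was positive for 8 of the 10, with a median of 0.201. DBH, the enzyme that makes noradrenaline, went against the list and lay under every control in 12 of 12 knockdown libraries. It averaged 234 ± 35.7 CPM with siNTC and 143 ± 11.3, 170 ± 15.3 and 167 ± 20.7 CPM with si45, si46 and si47. The log2 fold change of DBH was -0.56 (SE 0.0801, edgeR adjusted p = 1.27e-05). HAND2, a transcription factor of the sympathetic lineage, was above all controls in 12 of 12 (log2 fold change 0.23, SE 0.0623, edgeR adjusted p = 0.0193). CHGA, a granule protein, was above all controls in 11 of 12 (log2 fold change 0.67, SE 0.182, edgeR adjusted p = 0.0431). Whether these marker calls hold without single libraries was not tested.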
